A study of Mus musculus with 22 samples.

Results

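Immediate early genes are the genes that a cell transcribes within minutes of a stimulus, without first making new protein. The 10 members of the class described here, Fos, Fosb, Junb, Egr1, Egr2, Arc, Npas4, Nr4a1, Ier2 and Homer1, were read out by gene symbol in RNA-seq libraries of mouse hypothalamus. All 10 symbols were found among the 41456 gene identifiers of the count table. Mice were C57BL/6J, either PWScrm+/p+ (called control) or PWScrm+/p− (called mutant), which lack the paternally inherited Snord116 cluster of small nucleolar RNA genes. Hypothalami were taken at lights on (ZT0), at ZT6 from undisturbed mice, or at ZT6 from mice kept awake for the preceding 6 h (sleep deprivation, SD). The ages and sexes of the mice were not given in the sources used here. Of 22 libraries, 17 had the transcripts of neural tissue and make up the main comparisons: control ZT0 (n = 3), control ZT6 (n = 4), control SD (n = 4), mutant ZT6 (n = 2) and mutant SD (n = 4).

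In neurons, calcium entry and growth factor signalling act through kinases on factors already bound to early gene promoters, chiefly CREB at cyclic AMP response elements and SRF with its partners at serum response elements. The first products are mostly transcription factors (Fos, Fosb and Junb of the AP-1 dimer, Egr1 and Egr2, Npas4, the orphan receptor Nr4a1), while Arc and the short form of Homer1 act directly at the synapse. The same genes answer serum, wounding and stress in many cells outside the brain, except Npas4 and Arc, which are largely neuronal. In the brain they are widely used as markers of recent activity, and in rodents several of them are known to be higher in cortex after waking than after sleep.

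Library quality bears on every result below. The 17 neural libraries held 14609454 to 46965594 counts each. Another 4 libraries were rich in collagen transcripts and are kept apart: all 3 of mutant ZT0 and mutant ZT6 replicate 3. In them the sum of 8 neuron markers was 3.45 to 23.4 CPM (counts per 1000000 counts of the library), against 2379 to 3926 CPM in the neural libraries, and the sum of 8 hypothalamus markers was 3.17 to 5.62 CPM against 833.4 to 1868 CPM. All 8 markers of each of those lists were lower in each collagen-rich library than in any neural one, so these 4 libraries nearly lack the defining transcripts of the labelled tissue. No neuron marker was at 0 in all 4, and 1 of 8, Slc32a1, was at 0 in at least 3. Their sum of 5 fibroblast markers was 7689 to 22190 CPM, against 25.9 to 290.7 CPM, and 3 of the 5 were higher in each of the 4 than in any neural library. Mutant ZT6 replicate 2 held 7348 counts in all, with 1 count for Fos, and was not used. Counts of the 17 genes whose symbol begins with Snord116 were 0 in all 6 neural mutant libraries and ranged from 0 to 1561 (median 14) in the 11 control libraries, 3 of which were at 0. Pituitary hormone transcripts summed to 23250 CPM in mutant SD replicate 1, 1097 CPM in mutant SD replicate 4 and 691.9 CPM in control ZT6 replicate 1. Sample titles carry index numbers in 3 runs, 1 to 4, 5 to 18 and 43 to 46, and all 3 control ZT0 libraries lie in the run 5 to 18. Each title opens with a number of its own, but the labels do not state that these number mice, so p-values measure the spread between libraries, which may in part be technical.

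Proximal promoter sequence is shown for 4 members, chosen because Fos, Junb and Nr4a1 were called higher in the collagen-rich libraries and Homer1 was not. RefSeq promoter windows on GRCm38.p6, 250 bases before to 50 after a start site, were used for 7 of the 10 members. The lines give the 250 bases upstream of the start, 5′ to 3′ on the gene's strand. These lie at chr12:85473640-85473889 (plus strand), chr8:84978749-84978998 (minus strand), chr15:101266596-101266845 (plus strand) and chr13:93303507-93303756 (plus strand). Capitals mark TGACG, the core of the cyclic AMP response element, on either strand (CGTCA on the other), and TATAAA.
Fos: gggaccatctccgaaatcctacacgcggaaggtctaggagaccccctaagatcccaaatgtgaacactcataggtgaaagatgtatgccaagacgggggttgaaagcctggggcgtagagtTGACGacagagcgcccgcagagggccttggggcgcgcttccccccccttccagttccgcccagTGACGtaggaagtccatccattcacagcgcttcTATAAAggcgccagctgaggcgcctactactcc
Junb: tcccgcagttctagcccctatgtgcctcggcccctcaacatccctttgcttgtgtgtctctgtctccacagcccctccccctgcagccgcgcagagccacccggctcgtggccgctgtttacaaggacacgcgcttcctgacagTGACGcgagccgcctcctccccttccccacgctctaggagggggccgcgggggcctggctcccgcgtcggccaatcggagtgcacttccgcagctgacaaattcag
Nr4a1: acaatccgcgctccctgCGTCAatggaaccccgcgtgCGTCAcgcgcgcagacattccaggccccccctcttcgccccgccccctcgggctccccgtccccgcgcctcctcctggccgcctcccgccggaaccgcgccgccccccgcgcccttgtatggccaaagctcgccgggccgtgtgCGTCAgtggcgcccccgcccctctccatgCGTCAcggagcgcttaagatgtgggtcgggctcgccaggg
Homer1: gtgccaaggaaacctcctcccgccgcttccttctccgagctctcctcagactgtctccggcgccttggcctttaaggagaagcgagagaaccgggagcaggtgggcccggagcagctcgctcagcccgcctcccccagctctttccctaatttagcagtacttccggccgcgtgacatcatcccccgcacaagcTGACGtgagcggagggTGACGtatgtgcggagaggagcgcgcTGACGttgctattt
In the GRCm38 annotation Fos lies on chromosome 12 (85473890 to 85477273), Fosb on 7 (19302696 to 19310051), Egr2 on 10 (67535475 to 67542188) and Nr4a1 on 15 (101254269 to 101274795). Arc lies on 15 as well (74669083 to 74672570), Npas4 on 19 (4984355 to 4990316) and Ier2 on 8 (84661331 to 84662852).

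The core TGACG was found in the first window of 6 of the 7 members, beside 20.8% of all 32851 promoter windows. The Fos window held it at −129 and −66 and a TATAAA at −33, counted from the start site. The Nr4a1 window held 4 copies, the first Homer1 window 3, at −56, −40 and −14, and its second none, the Npas4 window 2, and the Junb and Fosb windows 1 each. For Egr2 the first of its 5 windows held none, while 3 of the other 4, which overlap and share their sites, held 2 copies each. Each of those other 4 held a CArG box, the core of the serum response element, which 1.63% of all windows hold. The full palindrome TGACGTCA (1.79% of all windows) and the AP-1 motif TGANTCA (7.81%) were in none of the windows, and the Egr motif GCGNGGGCG (5.55%) was in those of Fosb and Nr4a1. Motifs were searched on both strands. TGACG lies within TGACGTCA, and none of these matches shows that a factor was bound.

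The first question is whether SD moved these genes in hypothalamus. In neural libraries it did not to a degree that any test passed: 0 of 10 members were called at an adjusted p under 0.05 by edgeR's quasi-likelihood test in control mice, in mutant mice or in the mean of the genotypes. The background was as low. Of 21346 genes tested, 0% were called in control mice and in mutant mice, and 1 gene, 0.00468%, in the mean of the genotypes. That gene was Rbm3, a cold-inducible RNA-binding protein, with a log2 fold change of −0.93 ± 0.12 (SE, adjusted p = 0.0198 by edgeR), and with RLE instead of TMM factors no gene was called lower. At an unadjusted p under 0.05 no member was reached in any of the 3 tests, against 6.17% of all genes in control mice, 2.16% in mutant mice and 4.87% in the mean. DESeq2 called 0 of the 10 members in each of the 3 tests too.

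Fos encodes the AP-1 subunit most often used to map active neurons. Its level at control ZT6 was 24.6, 10.03, 15.3 and 11.4 CPM in replicates 1 to 4. After SD, control libraries gave 16.97, 18.5, 10.6 and 12.3 CPM. The SD values lie inside the range of the undisturbed ones, and the single highest library is an undisturbed one. The log2 fold change of SD over ZT6 was −0.06 ± 0.26 (SE, edgeR, adjusted p = 1), with a 95% confidence interval of −0.62 to 0.50, that is 0.65-fold to 1.42-fold. In mutant mice Fos stood at 12.2 and 12.9 CPM at ZT6 and at 14.8, 8.88, 7.85 and 14.8 CPM after SD. The mutant SD libraries spread to both sides of the 2 ZT6 libraries, and the log2 fold change was −0.23 ± 0.32.

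For Junb, a Jun family partner within AP-1, the groups overlapped as well. Control ZT6 libraries gave 21.3, 11.4, 5.60 and 18.8 CPM, and control SD libraries 15.95, 15.1, 6.39 and 13.8 CPM. In both groups the lower values, 11.4 CPM and below, came from libraries with index numbers 5 to 18. The log2 fold change was −0.16 ± 0.41 in control mice and −0.22 ± 0.50 in mutant mice. Junb overlaps Prdx2 on the opposite strand (GRCm38, chromosome 8, 84974484 to 84978718, minus strand). Whether counting used strand is not given in the sources used here, so reads of the overlap could fall to either gene. Fosb, a Fos relative whose stable splice form accumulates with repeated stimulation, was listed at 0 in 7 of 17 neural libraries and at most at 2.66 CPM. Zeros occurred in libraries of up to 34056912 counts, while other libraries had 84 or 125 Fosb counts, so its estimates are uncertain. Its log2 interval in control mice ran from −2.89 to 4.01.

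Egr1, a zinc finger factor that links activity to synaptic gene programmes, was at 46.5, 25.7, 30.3 and 53.0 CPM at control ZT6 and at 34.2, 32.4, 28.7 and 48.7 CPM after SD. All SD libraries lay within the ZT6 range, and the log2 fold change was −0.08 ± 0.32. In mutant mice Egr1 was at 25.8 and 50.5 CPM at ZT6 and at 20.7, 18.5, 19.5 and 39.5 CPM after SD. Of the 4 mutant SD libraries 3 lay below both mutant ZT6 libraries. This was the member nearest to the unadjusted threshold in the SD tests, at a log2 fold change of −0.75 (95% interval −1.55 to 0.05, edgeR, unadjusted p = 0.0641, adjusted p = 1). Without mutant ZT6 replicate 4, the 50.5 CPM library, it was −0.15. Egr2, its close relative known for myelination in Schwann cells, was near the limit of detection at 0.0766 to 1.01 CPM over the neural libraries, 2 to 28 counts a library. Its log2 fold change after SD was 0.19 ± 0.61 in control mice and −0.94 ± 0.73 in mutant mice.

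Nr4a1, an orphan nuclear receptor induced by cyclic AMP, varied widely between undisturbed libraries. Control ZT6 libraries gave 20.8, 17.04, 1.12 and 7.46 CPM, and control SD libraries 11.4, 9.18, 10.5 and 9.25 CPM. The SD libraries were close together and sat within the wide undisturbed range. In mutant mice the 2 ZT6 libraries gave 7.52 and 2.54 CPM and the 4 SD libraries 20.0, 8.71, 9.74 and 14.3 CPM. Here the groups did not overlap, with every SD library above both ZT6 libraries, but the share of all genes that separate so was not taken. The log2 fold change of 1.28 (95% interval −0.29 to 2.85) had an unadjusted p of 0.103 and an adjusted p of 1 by edgeR. By DESeq2 the unadjusted p was 0.0487 and the adjusted p was 1. Without mutant ZT6 replicate 1 the log2 fold change was 2.22, and without mutant ZT6 replicate 4 it was 0.70. Mutant SD replicate 1, the highest of them, is also the library with the highest pituitary transcripts, and without the 3 pituitary-rich libraries the value was 0.84. The interaction of genotype and SD for Nr4a1 was 1.52 ± 0.92 (adjusted p = 1 by edgeR), 2.43 and 0.92 without mutant ZT6 replicate 1 or 4, and 0.71 without the pituitary-rich libraries.

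Npas4, a calcium-dependent factor of neurons that adjusts inhibitory synapses, was at 6.39, 2.38, 4.11 and 7.12 CPM at control ZT6 and at 8.65, 4.01, 2.51 and 6.58 CPM after SD. The ranges overlapped over most of their length. The log2 fold change was 0.15 ± 0.44 in control and −0.51 ± 0.53 in mutant mice. Ier2, a small nuclear regulator, was at 1.57 to 5.29 CPM over all neural libraries, with log2 fold changes of −0.03 ± 0.38 and 0.12 ± 0.46.

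The synaptic effectors also overlapped between states. Arc, whose product takes AMPA receptors from the synapse, was at 20.4, 10.7, 9.89 and 17.3 CPM at control ZT6. After SD it was at 17.6, 14.98, 8.29 and 14.1 CPM, inside or just below that range. Its log2 fold change was −0.08 ± 0.27 in control mice, with an interval of −0.65 to 0.50, and −0.24 ± 0.33 in mutant mice, where ZT6 libraries gave 12.2 and 15.99 CPM and SD libraries 11.9, 12.7, 9.86 and 17.2 CPM. Homer1, a scaffold linking metabotropic glutamate receptors to intracellular calcium stores, was at 18.4, 17.2, 43.4 and 20.1 CPM at control ZT6 and at 18.6, 26.4, 28.3 and 18.3 CPM after SD. The third undisturbed library exceeded all others, and without it the log2 fold change moved from −0.09 ± 0.26 to 0.29. In mutant mice Homer1 was at 25.03 and 24.2 CPM at ZT6 and at 24.4, 36.9, 30.6 and 28.0 CPM after SD, a log2 fold change of 0.18 ± 0.32. The gene spans 12 annotated transcripts (GRCm38, chromosome 13, 93299635 to 93405129, plus strand) and overlaps the annotated genes Gm47075 and Gm47088, and gene-level counts do not separate the activity-induced short form Homer1a from the long forms.

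**Figure D1:**
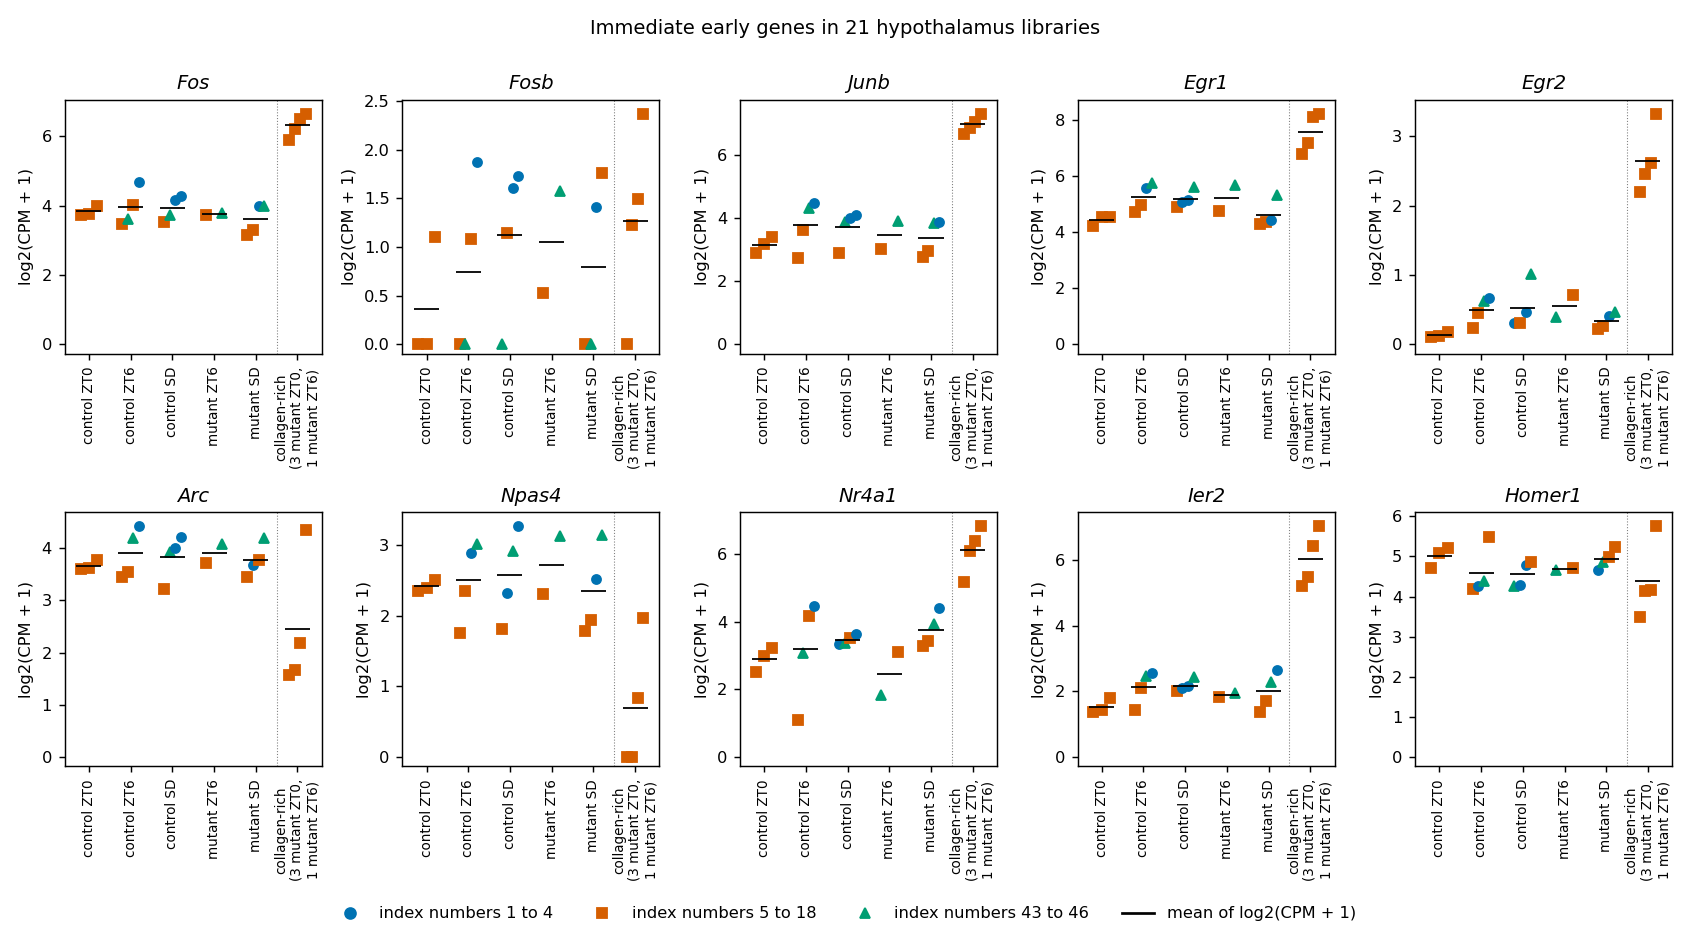
Levels of the 10 members on a log2(CPM + 1) axis, 1 point per library, for the 5 groups of neural libraries and, right of the dotted line, the 4 collagen-rich libraries. Colour and shape give the run of index numbers and the black line is the mean of the plotted values. The neural groups overlap for most members, while Fos, Junb, Egr1, Egr2, Nr4a1 and Ier2 are higher in all 4 collagen-rich libraries than in any neural one.

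**Figure D2:**
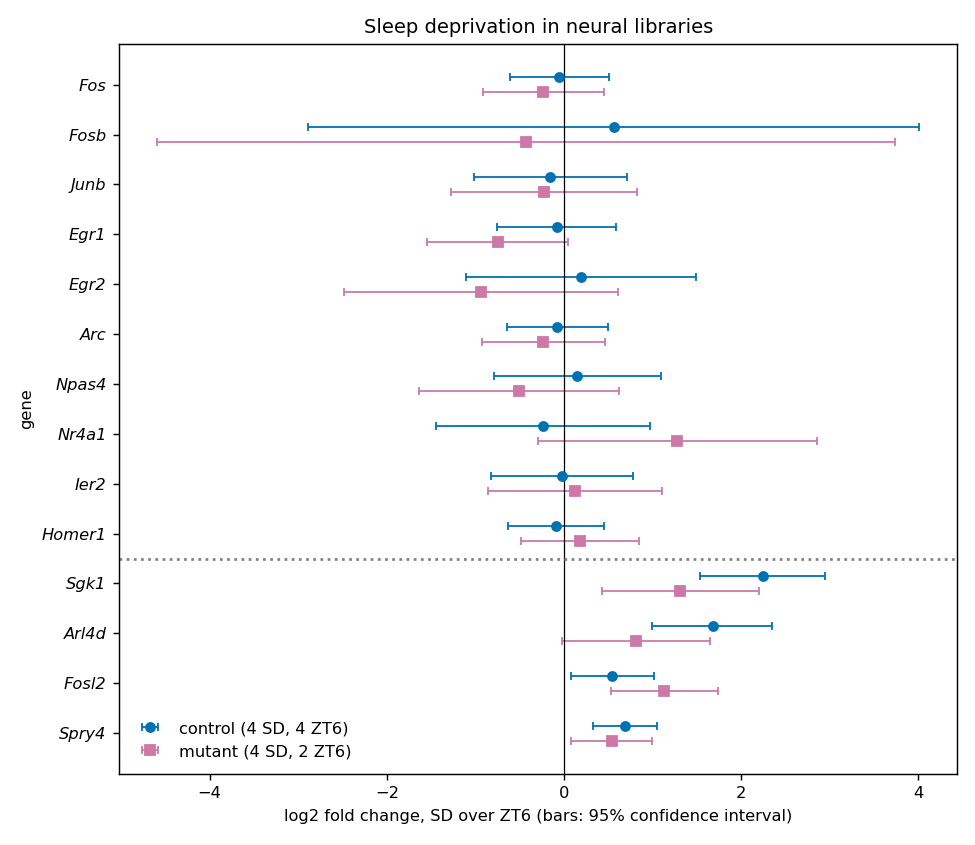
Log2 fold change of SD over ZT6 with its 95% confidence interval, in control mice (4 against 4 libraries) and mutant mice (4 against 2), for the 10 members and, below the dotted line, 4 other early response genes. The interval includes 0 for all 10 members in both genotypes. The Sgk1 values, 2.24 in control and 1.31 in mutant mice, are each the largest positive one of their genotype with an interval above 0.

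For 4 members the control interval was narrow enough to bound the size of a change in the fit of all neural groups. Fos, Arc, Homer1 and Egr1 had upper bounds of 1.42-fold, 1.41-fold, 1.37-fold and 1.5-fold. Their lower bounds were 0.653-fold, 0.638-fold, 0.645-fold and 0.593-fold, so moderate decreases lie inside as well. The Homer1 bounds depend on control ZT6 replicate 3, without which the log2 fold change was 0.29. They hold for all its transcripts together and do not bound the short form Homer1a. A p that misses the threshold does not show that the levels were equal. In tissue RNA, fewer responding cells and less transcript per cell cannot be told apart.

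Other genes of the early response were read from lists of the same class. After SD in control mice, 0 of 21 tested early transcription factors, 0 of 25 signalling regulators and 0 of 12 secreted and synaptic genes were called by edgeR, with median log2 fold changes of 0.27, 0.11 and 0.26 beside −0.02 over all genes. At an unadjusted p under 0.05 the counts were 3, 5 and 2, where 6.17% of all genes were. DESeq2 called 2 genes of these lists in control mice, Sgk1 and Arl4d, and 4 in the mean of the genotypes, where Fosl2 (0.84 ± 0.19) and Spry4 (0.62 ± 0.14), both with an adjusted p of 0.00784, joined them. By edgeR the adjusted p in that mean was 0.449 for the AP-1 subunit Fosl2 and 0.504 for Spry4, an inhibitor of growth factor signalling. Sgk1, a kinase induced by glucocorticoids as well as by activity, differed most. It was at 26.4, 15.6, 25.3 and 16.4 CPM at control ZT6 and at 122, 96.8, 112 and 63.2 CPM after SD. Every SD library was above every undisturbed one, yet edgeR gave an adjusted p of 0.114 for the log2 fold change of 2.24 ± 0.34, while DESeq2 gave 2.11e-07. In mutant mice Sgk1 was at 28.2 and 20.0 CPM at ZT6 and at 33.9, 42.3, 62.1 and 115.1 CPM after SD, again without overlap, a log2 fold change of 1.31 ± 0.42 (adjusted p = 1 by edgeR). Arl4d, a small GTPase, was at 2.24 to 3.79 CPM at control ZT6 and at 6.53 to 14.7 CPM after SD, with a log2 fold change of 1.68 ± 0.32 (adjusted p = 0.639 by edgeR and 0.00128 by DESeq2). Both, and Fosl2 and Spry4 in the plot of SD effects, were picked out after their values were seen. The share of all genes whose SD and ZT6 libraries do not overlap was not taken. The upstream regulators, CREB and SRF with their kinases and cofactors, had 0 of 21 called and a median of −0.01. The list of Homer family members and their synaptic partners had 0 of 8 called and a median of −0.12.

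Time of day was compared in control mice only. From ZT0 to ZT6, 0 of 10 members were called by edgeR (0% of 21346 genes), and SD against ZT0 likewise called 0 of 10 (0%). DESeq2 called 0 members in either. In each, 3 members reached an unadjusted p under 0.05, where 3.25% and 7.31% of all genes did: Egr1, Egr2 and Ier2. Egr1 was at 22.4, 22.2 and 17.9 CPM at ZT0, below all 4 ZT6 libraries, with a log2 fold change of 0.94 ± 0.35 (unadjusted p = 0.0162, adjusted p = 0.96 by edgeR). Egr2 was at 0.135, 0.0766 and 0.0881 CPM at ZT0, 4, 2 and 3 counts, also below all 4 ZT6 libraries, with 2.07 ± 0.73 (unadjusted p = 0.0119 by edgeR). It passed the low-count filter only through groups other than ZT0, where it was higher, so its changes from ZT0 are uncertain. Its lowest ZT6 library, replicate 2, had 4 counts. For Egr1 and Egr2, the share of all genes with every ZT0 library below every ZT6 library was not taken. Ier2 was at 1.68, 1.57 and 2.47 CPM at ZT0 and at 4.92, 3.28, 1.68 and 4.59 CPM at ZT6, with 0.98 ± 0.42 (unadjusted p = 0.0324). All ZT0 libraries have index numbers 5 to 18. Within that run, 2 ZT6 libraries against the 3 ZT0 libraries gave smaller log2 differences of 0.52 for Egr1, 1.04 for Egr2 and 0.41 for Ier2. For SD over ZT0 the pooled log2 fold changes were 0.85, 2.26 and 0.95, and the 1 SD library of that run gave 0.52, 0.93 and 0.72. With the index runs as a covariate, a fit chosen after seeing the data, Egr1, Egr2 and Ier2 stood at 0.58, 1.70 and 0.57 for ZT6 over ZT0 and at 0.42, 1.68 and 0.42 for SD over ZT0, all uncalled. Of the other early response genes DESeq2 called Trib1, a pseudokinase, for ZT6 over ZT0 (1.14 ± 0.26, adjusted p = 0.017). For SD over ZT0 it called Trib1 (1.66 ± 0.26, adjusted p = 9.35e-07), the transcription factor Klf2 (1.67 ± 0.34, adjusted p = 0.00204), Sgk1 and Arl4d, none of them called by edgeR. Fos was at 15.04, 12.4 and 12.6 CPM at ZT0, with a log2 fold change of 0.23 ± 0.29 to ZT6 and −0.01 within the run. Arc was at 12.6, 11.2 and 11.1 CPM at ZT0, with 0.36 ± 0.29 pooled and −0.09 within the run. Homer1 was at 32.8, 25.3 and 36.0 CPM at ZT0, with −0.31 ± 0.27.

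The members' levels also differed between the runs of index numbers. Junb was at 5.60 to 11.4 CPM in the 9 libraries of 5 to 18 and at 13.3 to 21.3 CPM in the 8 others, with no overlap. It was the only 1 of 10 members lower in every library of 5 to 18, where 1.84% of all genes were, and 2.55% of all genes did not overlap in either direction. Egr1 averaged 33.5 ± 10.6 CPM (SD, n = 4) in run 1 to 4, 23.5 ± 4.5 (n = 9) in 5 to 18 and 47.9 ± 5.9 (n = 4) in 43 to 46. Npas4 averaged 5.94, 3.48 and 7.32 CPM in the same order, Arc 16.2, 10.9 and 16.2 CPM, and Ier2 4.25, 2.24 and 3.95 CPM. Fos was high in the first run only, at 18.7 CPM against 11.7 and 12.8 CPM. Homer1 went the other way, at 21.97, 30.6 and 22.7 CPM. The mean of the 10 members' z-scores was below 0 in all 9 libraries of 5 to 18, from −0.70 to −0.09, and above 0 in all 8 others, from 0.05 to 1.00. No share over other sets of genes stands beside this. All 3 control ZT0 libraries are among those 9, so run and time of day are partly mixed. The labels do not say what the index runs are, and their part in these levels was not tested beyond the within-run values and the fits that take the runs as a covariate.

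**Figure D3:**
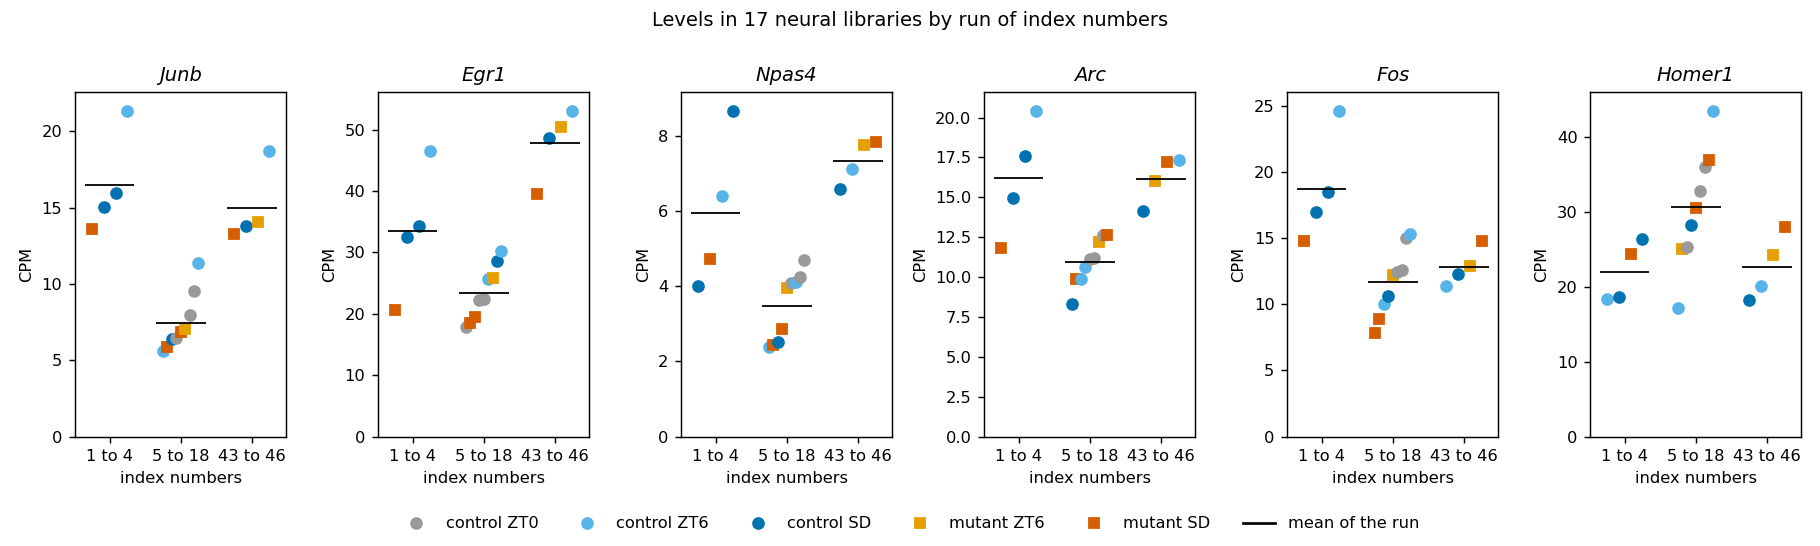
CPM of 6 members in the 17 neural libraries by run of index numbers, 1 point per library, coloured by group, with the mean of each run as a black line. Junb in the run 5 to 18 stays at or below 11.4 CPM and is at 13.3 CPM or above in the other runs, while the ranges of Fos and Homer1 overlap between runs.

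Mutant and control mice were compared at the same state to see whether Snord116 loss altered the early genes. After SD, 0 of 10 members were called by edgeR (0% of 21346 genes), and none reached an unadjusted p under 0.05 (2.96% of all genes). Egr1 came closest, at 34.2, 32.4, 28.7 and 48.7 CPM in control and 20.7, 18.5, 19.5 and 39.5 CPM in mutant SD libraries. Of the 4 mutant libraries 3 were below all control ones, and the log2 fold change was −0.62 (95% interval −1.29 to 0.05, unadjusted p = 0.0684, adjusted p = 0.999 by edgeR). Without mutant SD replicate 4 it was −0.97, and without control SD replicate 4 it was −0.37, both uncalled. Both replicates 4 are in index run 43 to 46, where all Egr1 levels were high. Within the runs 1 to 4, 5 to 18 and 43 to 46 the log2 difference of mutant from control was −0.81, −0.64 and −0.40, with 1 or 2 libraries a group and no test. For Fos the log2 fold change was −0.39 ± 0.26, for Arc −0.14 ± 0.27 and for Homer1 0.34 ± 0.26. Mutant SD replicates 1 and 4 are pituitary-rich, and no control SD library is. Without the pituitary-rich libraries, Fos was at −0.777, Junb at −0.996, Egr2 at −1.33 and Npas4 at −1.03. Nr4a1 was then at −0.123, Ier2 at −0.875 and Homer1 at 0.571, all uncalled. The mutant SD libraries left, replicates 2 and 3, both have index numbers 5 to 18, while the control SD libraries lie in all 3 runs. Pituitary content and index run cannot be told apart here. Within that run, with 2 mutant libraries against 1 control library and no test, the log2 difference was −0.39 for Fos and −0.06 for Junb. It was −0.34 for Egr2, 0.02 for Npas4, −0.24 for Nr4a1, −0.68 for Ier2 and 0.20 for Homer1. Any part of pituitary content or index run was not tested. At ZT6, with 2 mutant libraries, 0 of 10 members were called (0% of all genes) and none reached an unadjusted p under 0.05 (2.65%), with log2 fold changes of −0.22 ± 0.33 for Fos, 0.05 ± 0.39 for Egr1, 0.02 ± 0.33 for Arc and 0.07 ± 0.31 for Homer1. The interaction of genotype and SD called 0 of 10 members (0%), and none reached an unadjusted p under 0.05 (2.48% of all genes). DESeq2 called 0 members in these 3 comparisons.

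The collagen-rich libraries gave a different picture. All 3 mutant ZT0 libraries are of this kind, so the ZT0 comparison of genotypes also compares libraries with and without neural transcripts, and the 2 cannot be told apart. Of the 10 members 6 were called higher (24.5% of the 18772 genes tested were) and 0 lower (31.5%), with 55.9% of all genes called. Egr2, among the 6, passed the low-count filter only through the mutant libraries, where it was high. The same 6 were above all 17 neural libraries in each of the 4 collagen-rich libraries, where 13.3% of genes were. The median log2 fold change over all genes was −0.21, so higher values stand that much further from the middle gene and lower ones that much nearer to it.

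Among the AP-1 genes, Fos was at 88.6, 99.7 and 73.1 CPM in mutant ZT0 libraries and 58.7 CPM in the collagen-rich mutant ZT6 library, against 12.4 to 15.04 CPM in control ZT0. All 4 are above the highest neural library, at 24.6 CPM. Its log2 fold change was 3.17 ± 0.23 (adjusted p = 7.36e-05 by edgeR), or 8.97-fold. Junb was at 100.9, 156.7, 128.8 and 115.1 CPM against 6.49 to 9.55 CPM, a log2 fold change of 4.46 ± 0.28 (adjusted p = 4.77e-05). Fosb did not follow, at 1.81, 1.34, 0 and 4.16 CPM (log2 fold change 2.13 ± 1.62, adjusted p = 0.298). Its log2 fold change was 8.03, with an adjusted p of 0.0268, without control ZT0 replicate 2, the 1 control ZT0 library with any Fosb count.

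Egr1 was at 300.1, 277.3 and 143.9 CPM in mutant ZT0 and at 110.9 CPM in the collagen-rich ZT6 library, against 17.9 to 22.4 CPM (log2 fold change 3.99 ± 0.38, adjusted p = 0.000193). Egr2, barely present in neural libraries, was at 9.04, 5.13, 4.49 and 3.60 CPM, or 140, 165, 14 and 64 counts. Its log2 change was 6.36 ± 0.56 (adjusted p = 0.000145 by edgeR). With 4, 2 and 3 counts in control ZT0 it passed the low-count filter through the mutant libraries alone, so its call is not taken as support and the size of the change is uncertain. Ier2 was at 129.3, 85.3, 43.6 and 35.6 CPM against 1.57 to 2.47 CPM, a log2 change of 5.96 ± 0.52 (adjusted p = 0.000149). Nr4a1 was at 111.6, 34.7, 67.3 and 82.8 CPM against 4.73 to 8.28 CPM, a log2 change of 3.88 ± 0.49 (adjusted p = 0.000673). Fos, Junb, Egr1, Ier2 and Nr4a1 were called under each of 11 alternatives, which include leaving out each library in turn. So was Egr2, with the limit of the filter just given.

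Arc, Npas4 and Homer1 were not called higher. Arc was at 19.4, 1.99 and 3.53 CPM in mutant ZT0 and 2.19 CPM in the collagen-rich ZT6 library, so 1 library stood at neural levels and 3 below all neural ones. The log2 fold change of 0.02 ± 0.79 became −1.83 (adjusted p = 0.00382 by edgeR) without mutant ZT0 replicate 1. Npas4 was at 2.91, 0, 0 and 0.788 CPM against 4.10 to 4.71 CPM, with −1.53 ± 1.38 (adjusted p = 0.375). Without that same library both remaining mutant libraries are at 0 counts and edgeR called it lower (adjusted p = 0.000781). Mutant ZT0 replicate 1 had the highest neuron marker sum of the 4, at 23.4 CPM. Mutant ZT0 replicate 2, where Homer1 was above every neural library, had the lowest, at 3.45 CPM. Any part of neuron content in these values was not tested. Homer1 was at 10.2, 53.0 and 16.99 CPM in mutant ZT0 and 16.8 CPM in the ZT6 library, with 0.25 ± 0.58 (adjusted p = 0.736), and −0.86 (adjusted p = 0.0261) without mutant ZT0 replicate 2, the 53.0 CPM library. The call on Arc, Npas4 and Homer1 therefore rests on single libraries.

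Early transcription factors and signalling regulators were mostly higher in the same comparison, while secreted and synaptic genes were split. Of 22 tested transcription factors 15 were called higher and 1, Egr4, lower (median log2 fold change 3.23). Fosl1, an AP-1 subunit of dividing and wounded cells, was at 11.5 to 41.9 CPM against 0 to 0.202 CPM. The Maf family member Maff was at 27.9 to 53.4 CPM against 0 to 0.804 CPM. Fosl1 and Maff passed the low-count filter only because of the mutant libraries, so the size of their changes is uncertain. Klf4 (5.64 ± 0.59) and Myc (5.60 ± 0.31) followed on the log2 scale. Of 25 signalling regulators 20 were called higher and 1, Fbxo33, lower (median 2.75). These included the cell cycle inhibitor Cdkn1a (6.19 ± 0.30), the EGF receptor inhibitor Errfi1 (4.81 ± 0.80), Ier3 (4.68 ± 0.67) and the mRNA decay factor Zfp36 (4.55 ± 0.45). Of 12 secreted and synaptic genes 4 were called higher and 5 lower (median 0.39), not far from the 24.5% and 31.5% of all genes. The matricellular protein gene Ccn1 (8.19 ± 0.36) and the prostaglandin synthase Ptgs2 (8.20 ± 1.12) were among the higher, and the granin Scg2 (−9.41 ± 0.47) and the vesicle protein Syt4 (−8.76 ± 0.38) among the lower. Egr4 had an adjusted p of 0.0166, and the others named here were at or below 0.00221 by edgeR.

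Upstream, 3 of 20 tested regulators were called higher and 7 lower (median −0.36), beside 24.5% and 31.5% of all genes, so the share called lower is near the background. The calcium-dependent kinases Camk2b (−9.77 ± 0.57) and Camk2a (−7.76 ± 0.88) and the CREB coactivator Crtc1 (−2.42 ± 0.33) were lower, while the SRF coactivator Mrtfa was higher (1.82 ± 0.27). Homer1's partners were mostly lower, 6 of 8, against 1 higher (median −4.53). Grm5, a metabotropic glutamate receptor, was at 102.4 to 135.4 CPM in control ZT0 and at most at 0.258 CPM in mutant ZT0 libraries. Shank1 (−5.93 ± 0.55) and Homer2 (−4.75 ± 0.88) were lower as well. The adjusted p-values of the genes named in these upstream and Homer lists were at or below 0.00352 by edgeR. Neuron and hypothalamus marker sums moved with these values, as given above, and their part in the result was not tested.

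**Figure D4:**
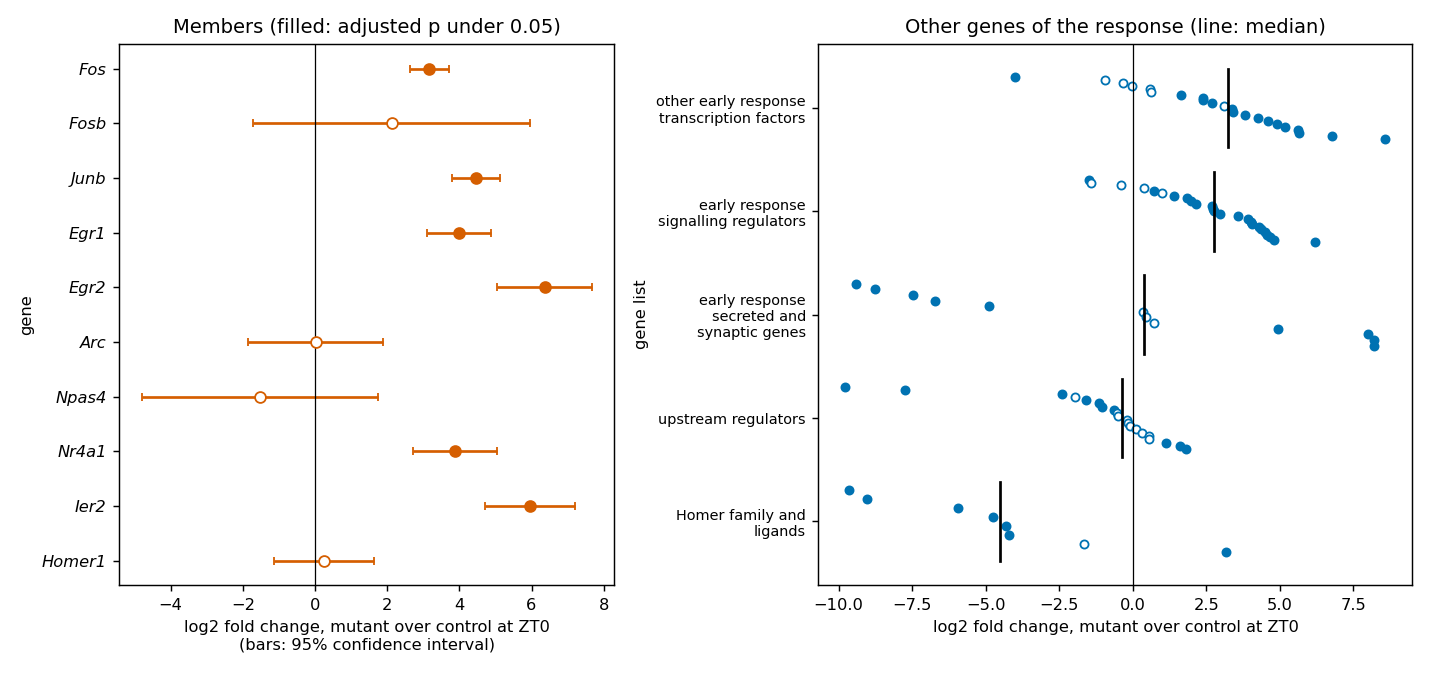
Log2 fold change of mutant over control at ZT0, 3 collagen-rich mutant against 3 neural control libraries. Left, the 10 members with 95% confidence intervals; right, each point is another gene of the early response or its upstream and Homer partners, with the list median as a line. Filled points had an adjusted p under 0.05: 6 members to the right of 0, and lists with medians from 3.23 (transcription factors) to −4.53 (Homer family and ligands).

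Genes with profiles most like the members were sought over the 17 neural libraries among 16736 candidates with a mean of at least 1 CPM. The members themselves did not share 1 profile. Pearson r was as high as 0.85, between Junb and Arc. Homer1 had a negative r with every other member, from −0.17 with Fosb to −0.83 with Junb, and Fosb reached at most 0.25, with Fos. The mean z-score of the 10 members was best matched by Ambra1 (Pearson r = 0.93, Spearman rho = 0.89), Nab2 (0.92 and 0.90), Parvb (0.91 and 0.84) and Pik3r2 (0.91 and 0.90), followed by Alas1, Gm11175, Fbxl16 and Gm8203. Nab2 encodes a corepressor of Egr factors. The libraries share the index runs described above, and within the 9 libraries of 5 to 18 the 8 coefficients were 0.28 to 0.71, with Nab2 highest. Fos alone was most like Sox14 (r = 0.87, within the run 0.76), Lrrtm1 and Flt4. Arc was most like Rgs3 (0.92, within the run 0.74), Ajap1 and Myl6b, and Homer1 most like Spopl (0.93 and 0.93), Slitrk4 and Bicd1. These are descriptions with no test.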

How the data were processed

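Poly(A) RNA libraries of mouse hypothalamus were trimmed with Trimmomatic 0.38 and quantified with kallisto 0.44.0 against an index of EnsDb.Mmusculus.v79, per the labels' protocols. The authors deposited expected counts (kallisto's estimated counts summarised by gene with tximport) as whole numbers, 1 column per library. Of 41461 lines, 5 repeats were dropped.

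CPM are counts per 1000000 counts of a library. The neural groups were fitted together, without covariates, in edgeR 4.0.16 (R 4.3.3; TMM factors 0.87 to 1.12; filterByExpr at 10 counts and 15 in total; quasi-likelihood F test, two-sided; Benjamini-Hochberg over all genes tested). Libraries under 100000 counts and collagen-rich ones were left out. The ZT0 genotypes were fitted apart, 3 against 3. Each SE was taken as the size of the log2 change divided by the root of its F statistic. Intervals cover 95%. The scripts were tested on simulated data. Alternatives included DESeq2 1.42.0, which the authors used per the labels' protocols, with other factors, filters, covariates and samples.

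The text names all 10 members, up to 4 called genes of largest change in each list, and the genes of most similar profile by Pearson correlation of log2 CPM (prior count 2). Apart from these, 1 called gene that the rule would name is not reported here. Members and lists were chosen with earlier results of these data known. Genes named beyond this are said to be so, or are the few called by a test. The labels give no replicate numbers, so replicates were numbered in accession order. The build of the promoter windows (RefSeq) matches the annotation (GENCODE M21, GRCm38).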

Additional observations from a re-analysis of the deposited data

Results flagged for a closer look

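Of 30 combinations of member and neural group with 4 libraries, 2 held a library far from the others of its group by Dixon's criterion, which chance alone gives in about 1 group of 20. Egr1 was at 39.5 CPM in mutant SD replicate 4, against 18.5 to 20.7 CPM in the other 3 mutant SD libraries. That library belongs to the index run 43 to 46, in which the 4 neural libraries gave 39.5 to 53.0 CPM. Homer1 was at 43.43 CPM in control ZT6 replicate 3, against 17.2 to 20.1 CPM in the other 3. The same library had the lowest Nr4a1 level of all neural libraries, at 1.12 CPM.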

How the results depend on the processing

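No member passed the threshold in any neural comparison under any alternative that was run, and each of the 6 called at ZT0 kept its call and direction. Values called under neither setting have no called direction: their sign changed in 34 of 189 alternative values for SD in control mice, 16 of 170 in mutant mice and 34 of 170 for genotype at ZT6. With all 22 libraries in the fit, which puts both the collagen-rich library and the one of 7348 counts into mutant ZT6, several uncalled values turned and left their interval. SD in mutant mice then gave −1.64 for Nr4a1 and −2.42 for Ier2, and the mean of the genotypes −0.92 and −1.21. Genotype at ZT6 gave 1.22 for Fos, 1.93 for Junb, 1.76 for Nr4a1 and 2.23 for Ier2, and the interaction −1.43 for Nr4a1 and −2.41 for Ier2. Leaving out 1 ZT0 library at a time, Arc ran from −1.83 to 0.56 and Homer1 from −0.86 to 0.62.

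Counts over all genes moved as follows, the cause not tested unless the setting itself removes samples. DESeq2 called 6 genes higher and 11 lower for SD in control mice, 15 and 1 in mutant mice, 27 and 9 in their mean, 22 and 2 for ZT6 over ZT0, and 32 and 0 for SD over ZT0. For genotype it called 1 and 0 after SD and 1 and 14 at ZT6, and for the interaction 7 and 1. The 1 lower gene of the mean of the genotypes became 0 with RLE factors, the 2-fold limit, only the groups compared, all 22 libraries, without index numbers 43 to 46, and without the pituitary-rich libraries. With no low-count filter 1 gene was higher for SD in control mice and 1 in the mean. Without index numbers 43 to 46, 1 was higher for SD in control mice and 1 over ZT0. With only the groups compared, 2 were higher for SD over ZT0. With all 22 libraries, 1 was higher and 172 lower for SD in mutant mice. Runs of the numbers that open the titles, as a covariate, gave 2 higher for SD in mutant mice, 3 higher and 3 lower in the mean, 3 higher for genotype after SD and 3 for the interaction. Runs of index numbers as a covariate, chosen after seeing the data, gave 2 higher and 2 lower in the mean and 3 higher for genotype after SD. Without the pituitary-rich libraries, 2 were higher for SD in control mice, 1 in the mean, 2 over ZT0 and 1 for genotype at ZT6, with 1 lower in the interaction. Leaving out 1 library at a time gave 0 to 1 higher for SD in control mice, 0 to 3 in mutant mice, 0 to 3 higher and 0 to 1 lower in the mean, 0 to 1 higher for ZT6 over ZT0, 0 to 1 higher and 0 to 2 lower for genotype at ZT6, and 0 to 2 higher and 0 to 1 lower in the interaction. Where mutant ZT6 kept 1 library, that library was assumed to vary like the other groups. No paired analysis was possible because the labels give no replicate numbers or other pairing. Counts limit Egr2, at 2 to 28 a neural library, and the 7 zeros limit Fosb.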
